A study of Homo sapiens with 2 samples.

Results

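The eukaryotic translation initiation factors (eIFs) and the kinases that phosphorylate eIF2 were examined in HepG2 cells, which derive from a human liver cancer, on 2 Affymetrix expression arrays of the U133 Plus 2.0 type. The family was taken by gene symbol, as all genes in the probe annotation that begin with EIF and a digit from 1 to 6, the EIF2AK kinases and the EIF4EBP genes included and pseudogenes and antisense or divergent transcripts left out. This gave 52 genes, of which 49 had a probe set of their own among the 19775 genes so represented on the arrays. One array came from cells given 218 μg/ml of an aqueous ethanolic extract of Padma 28, a polyherbal Indo-Tibetan preparation, for 18 h, and the other from cells given 0.9% ethanol (EtOH), the solvent, for the same time. The RNA of each array was that of 3 cultures pooled before extraction, so there is 1 array per treatment, the spread between cultures was not measured and no test across samples could be made. Both groups were the same cell line in growth medium with serum, and neither carried a genetic change that the labels name.

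Protein synthesis begins when eIF2, carrying GTP and the initiator tRNA, joins the small ribosomal subunit with eIF1, eIF1A, eIF3 and eIF5, while eIF4F, made of the cap-binding eIF4E, the scaffold eIF4G and the helicase eIF4A, brings the mRNA. After the start codon is found, eIF2 leaves with GDP, and eIF2B exchanges that GDP for GTP. Phosphorylation of the alpha subunit of eIF2 by the kinases HRI, PKR, PERK or GCN2 blocks eIF2B, which lowers general synthesis and raises translation of a few mRNAs such as that of ATF4. Hypophosphorylated eIF4E-binding proteins hold eIF4E away from eIF4G, and the kinase TOR releases them by phosphorylation. All of this control works on proteins, whereas the arrays measured the transcripts.

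The values are on the log2 scale, and each difference was formed by subtracting the EtOH value of a probe set from its Padma 28 value, so that 1 stands for 2-fold. Each gene is represented by the brightest of its own probe sets. Its other probe sets are given in the text for some genes only. A value printed alone is that of the brightest one, and dimmer ones can differ from it in size or sign. A gene counts as above the background limit where its mean over both arrays lay at least 2 log2 units over the most frequent value of the arrays, that is at 4.30 or more. Of all genes, 10271 passed this limit, and of the family 46, each of them above the limit on both arrays. The other 3 with a probe set of their own, EIF4A2, EIF4E3 and EIF5A2, lay below it on both arrays, and EIF3CL, EIF4A1 and EIF4EBP3 had only probe sets shared with other genes. EIF1AY, which lies on the Y chromosome, is counted among the 46 and its level is not given.

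The hepatocyte and hepatoma genes ALB, AFP, APOA1, TTR and SERPINA1 were above the limit on both arrays. All 9 hepatocyte and hepatoma markers measured had differences below 0 on their brightest probe sets, with a median of -0.17 and a lowest value of -0.55 for FGB. Other probe sets reached further to both sides, from -1.07 to 0.27 for ALB, down to -1.23 for TF and up to 0.03 for APOA1. Of 8 markers of blood, fibroblast or endothelial cells, PTPRC, CD3E, COL3A1, CDH5 and VWF were below the limit on both arrays, while COL1A1, ACTA2 and PECAM1 were above it with differences of -0.03, -0.06 and 0.32. Summed over the list on the linear scale, the hepatocyte and hepatoma markers gave 434997 with Padma 28 and 482460 with EtOH. The markers of other cells gave 1123 with Padma 28 and 1140 with EtOH. The part of such shifts in the results below was not tested.

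EIF4EBP1 was the only member more than 2-fold higher with Padma 28, and none was more than 2-fold lower. Among all genes above the limit, 1.47% were more than 2-fold higher and 0.643% more than 2-fold lower, against 2.17% and none of the 46 members. Past 1.5-fold, a smaller change given here for description, were 3 members higher, EIF4EBP1, EIF2S2 and EIF2D, and none lower. This is 6.52% of the members, beside 6.33% of all genes above the limit that were more than 1.5-fold higher and 2.79% that were more than 1.5-fold lower, so the share past 1.5-fold was near the background. The family had a median difference of 0.14, beside 0.06 over all genes above the limit, and 43 of the 46 members lay between the 5th and the 95th percentile of those genes, which were at -0.45 and 0.64.

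Small differences above 0 were the most frequent, in 36 of 46 members or 78.3%, where 58.3% of all genes above the limit had a difference above 0. After centring on the median of all genes above the limit, 30 of 46 members or 65.2% were above 0, beside 50% of all genes. The sign was spread unevenly over the roles. The subunits of eIF3 lay on the higher side and most eIF4 factors on the lower one, as given role by role further on. Each of those counts is to be read beside the 58.3% of all genes above 0, or 50% after centring on the median. Counted as probe sets, 72 of the 96 own probe sets of the family above the limit on at least 1 array, 75%, had a difference above 0, against 53.8% of 18885 probe sets of all genes. The single difference of a member is to be read against the disagreement between probe sets of 1 gene. The median gap between the 2 brightest was 0.15 over 5064 genes with several probe sets above the limit. It was 0.11 over 25 members, EIF1AY left out. Gaps to dimmer probe sets could be wider, as for EIF3B, with differences from -0.78 to 0.08.

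**Figure D1:**
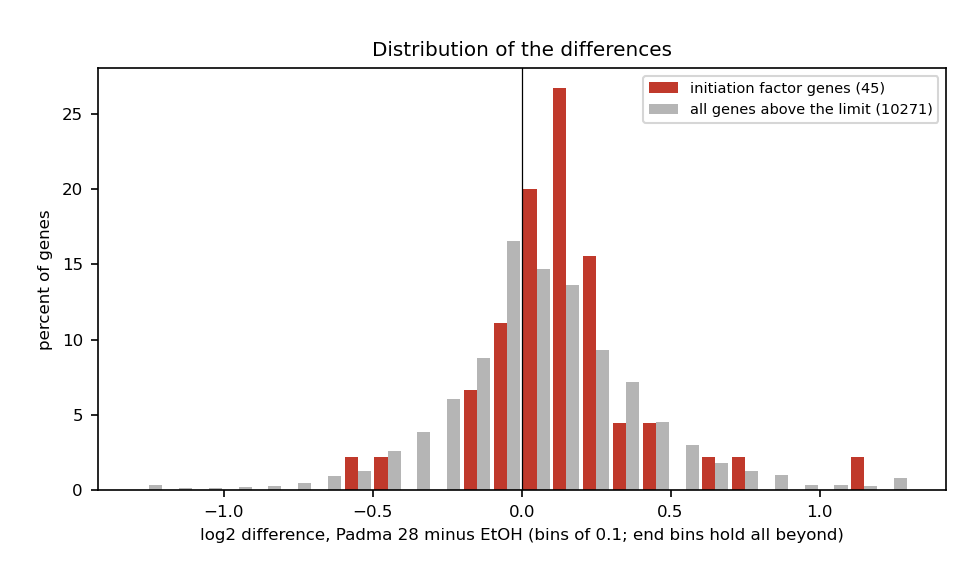
Percent of genes (vertical axis) in bins of 0.1 of the log2 difference, Padma 28 minus EtOH (horizontal axis), from 1 array per treatment, for 45 initiation factor genes (red, EIF1AY left out) and all 10271 genes above the background limit (grey). The end bins hold all values beyond them; the red bars peak between 0.1 and 0.2, which hold 26.7% of the members, and the 1 member past 2-fold is EIF4EBP1.

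Promoters of members near either end of the range are shown because the differences concern transcripts, which promoters give rise to. They are the 250 bases before the RefSeq start (GRCh38.p14) of the 2 highest and the 2 lowest members for which such a window could be shown, taken at the first start of the gene. The higher pair ranks after EIF4EBP1 and EIF2S2, whose windows are not shown. The sequences are given on the strand of the gene and 5′ to 3′. Capitals mark matches to those of the motifs searched that occur here, the antioxidant response element TGACNNNGC and the E-box CACGTG.
EIF2D, chr1:206612466-206612715, minus strand: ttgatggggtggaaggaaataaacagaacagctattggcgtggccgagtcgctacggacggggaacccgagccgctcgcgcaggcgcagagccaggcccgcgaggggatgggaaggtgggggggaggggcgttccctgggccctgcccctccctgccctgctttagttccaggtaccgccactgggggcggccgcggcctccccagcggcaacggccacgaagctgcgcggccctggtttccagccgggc
EIF5, chr14:103333987-103334236, plus strand: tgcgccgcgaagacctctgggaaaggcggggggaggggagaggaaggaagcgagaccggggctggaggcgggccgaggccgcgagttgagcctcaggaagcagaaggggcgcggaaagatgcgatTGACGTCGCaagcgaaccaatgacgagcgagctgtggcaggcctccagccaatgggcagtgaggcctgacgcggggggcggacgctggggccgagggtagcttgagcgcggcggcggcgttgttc
EIF2AK4, chr15:39933865-39934114, plus strand: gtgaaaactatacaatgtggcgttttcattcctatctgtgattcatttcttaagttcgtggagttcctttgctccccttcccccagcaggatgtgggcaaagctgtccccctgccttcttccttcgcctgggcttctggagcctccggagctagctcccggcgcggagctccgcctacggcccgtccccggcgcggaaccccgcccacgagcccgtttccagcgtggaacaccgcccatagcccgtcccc
EIF4G1, chr3:184314356-184314605, plus strand: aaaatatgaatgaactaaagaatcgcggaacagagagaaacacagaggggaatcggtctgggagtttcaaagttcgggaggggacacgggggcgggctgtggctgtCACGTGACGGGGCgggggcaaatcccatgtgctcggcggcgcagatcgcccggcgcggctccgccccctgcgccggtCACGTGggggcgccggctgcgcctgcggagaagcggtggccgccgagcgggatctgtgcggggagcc

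The window shown for EIF5 held 1 match to the antioxidant element, 125 bases before the start. That of EIF4G1 held the E-box at 144 and 67 bases before the start, the first of them overlapping a match to the antioxidant element at 140. Another window of each of these genes, not shown, also held a match to the antioxidant element. It lay 228 bases before the start for EIF5 and 34 for EIF4G1. The windows of EIF2D and EIF2AK4 held none of the 4 motifs.

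Both strands of 56 windows of 42 members, of 250 bases before and 50 after the start, were searched for 4 motifs that bind factors of stress and growth. Members without a window, among them EIF2S2, were not searched. The ATF4 element TGATGNAA was found in 1.79% of the members' windows, against 3.62% of all 35116 windows in the table. Of the searched members, only EIF4E3 held it, in 1 window. For EIF4EBP1, whose window is not shown, no motif result is given. The element TGACGTCA was found in none, against 1.85% of all. The antioxidant element was found in 21.4% of the members' windows and 13.3% of all, and the E-box, which MYC and related factors bind, in 21.4% of the members' windows and 7.26% of all. The 12 genes with an E-box were EIF1B, EIF2AK2, EIF2B3, EIF3F, EIF3K, EIF4A3, EIF4B, EIF4E, EIF4EBP3, EIF4G1, EIF4H and EIF5A2, among them 5 eIF4 factors. Their differences had either sign, from -0.41 for EIF4G1 to 0.41 for EIF2B3 where a gene was above the limit. The matches are letters in these windows and were not tested as binding sites.

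The eIF4E-binding proteins repress cap-dependent initiation. EIF4EBP1, whose product is the best-studied of them, had a log2 value of 10.32 with Padma 28 and 9.13 with EtOH on its single probe set. It was 2.29-fold higher, a log2 difference of 1.19, and ranked 84th from the top among the 10271 genes. EIF4EBP2, a close relative, was at 9.62 with Padma 28 and 9.36 with EtOH on its brightest probe set and at 7.46 and 7.24 on the next, so that both were higher by little, at 0.26 and 0.22. Its 3 dimmer probe sets were below the limit on both arrays. The only probe set of EIF4EBP3 is shared with ANKHD1 and a readthrough transcript of both genes. It read 8.57 with Padma 28 and 8.28 with EtOH, a difference of 0.30 that cannot be assigned to one of them. Of these repressors, only EIF4EBP1 was past 1.5-fold.

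The target of these repressors did not share that direction. EIF4E, the cap-binding protein, was at 11.34 with Padma 28 and 11.48 with EtOH, a difference of -0.15, while its next probe sets gave 0.10 and -0.09. EIF4G1, the main scaffold of eIF4F, was the lowest of the eIF4 factors. Its brightest probe set read 11.92 with Padma 28 and 12.33 with EtOH, 1.33-fold lower, and the second read 9.77 with Padma 28 and 10.09 with EtOH, so that both lay below 0, at -0.41 and -0.32. EIF4G2, a homologue that lacks the eIF4E-binding part, differed by -0.07.

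The other eIF4 factors stayed close to 0. EIF4B, which stimulates the helicase, was the highest at 0.12, with -0.06 and 0.46 on its other probe sets, and EIF4H, a related stimulator, was at -0.03. EIF4A3, the helicase of the exon junction complex, was at -0.03, EIF4E2, a cap-binding relative of eIF4E, at 0.05 and EIF4ENIF1, which carries eIF4E into the nucleus, at -0.16. Of the 8 eIF4 factors above the limit 6 had differences below 0, with a median of -0.05, where 41.7% of all genes above the limit were below 0. With the differences centred, either on their median or by loess, 7 were below 0. The median of the eIF4 factors stayed below 0 under all 11 alternative settings, at -0.13 to -0.03, with 6 to 10 factors counted depending on the setting. Several of these settings could not have turned its sign. An offset keeps the sign of each gene, and centring on the median of all genes, 0.06, could only lower the values. The stricter limit, no limit and the shared probe sets each gave the same -0.05. All these medians were smaller in size than 0.15, the median gap between probe sets given above.

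The helicases eIF4A1 and eIF4A2 could be read only on probe sets that the annotation shares with small nucleolar RNAs encoded in their introns. For EIF4A1 the brighter pair, shared with SENP3-EIF4A1 as well, read 14.28 and 14.10 with Padma 28 and 14.24 and 14.04 with EtOH, differences of 0.04 and 0.06, while a dimmer one was at -0.29. For EIF4A2 they read 14.17 and 8.79 with Padma 28 and 14.37 and 9.51 with EtOH, differences of -0.20 and -0.72. Both probe sets shared by EIF4A2 were thus lower with Padma 28, the dimmer one by more than 1.5-fold, whereas those shared by EIF4A1 differed in sign.

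**Figure D2:**
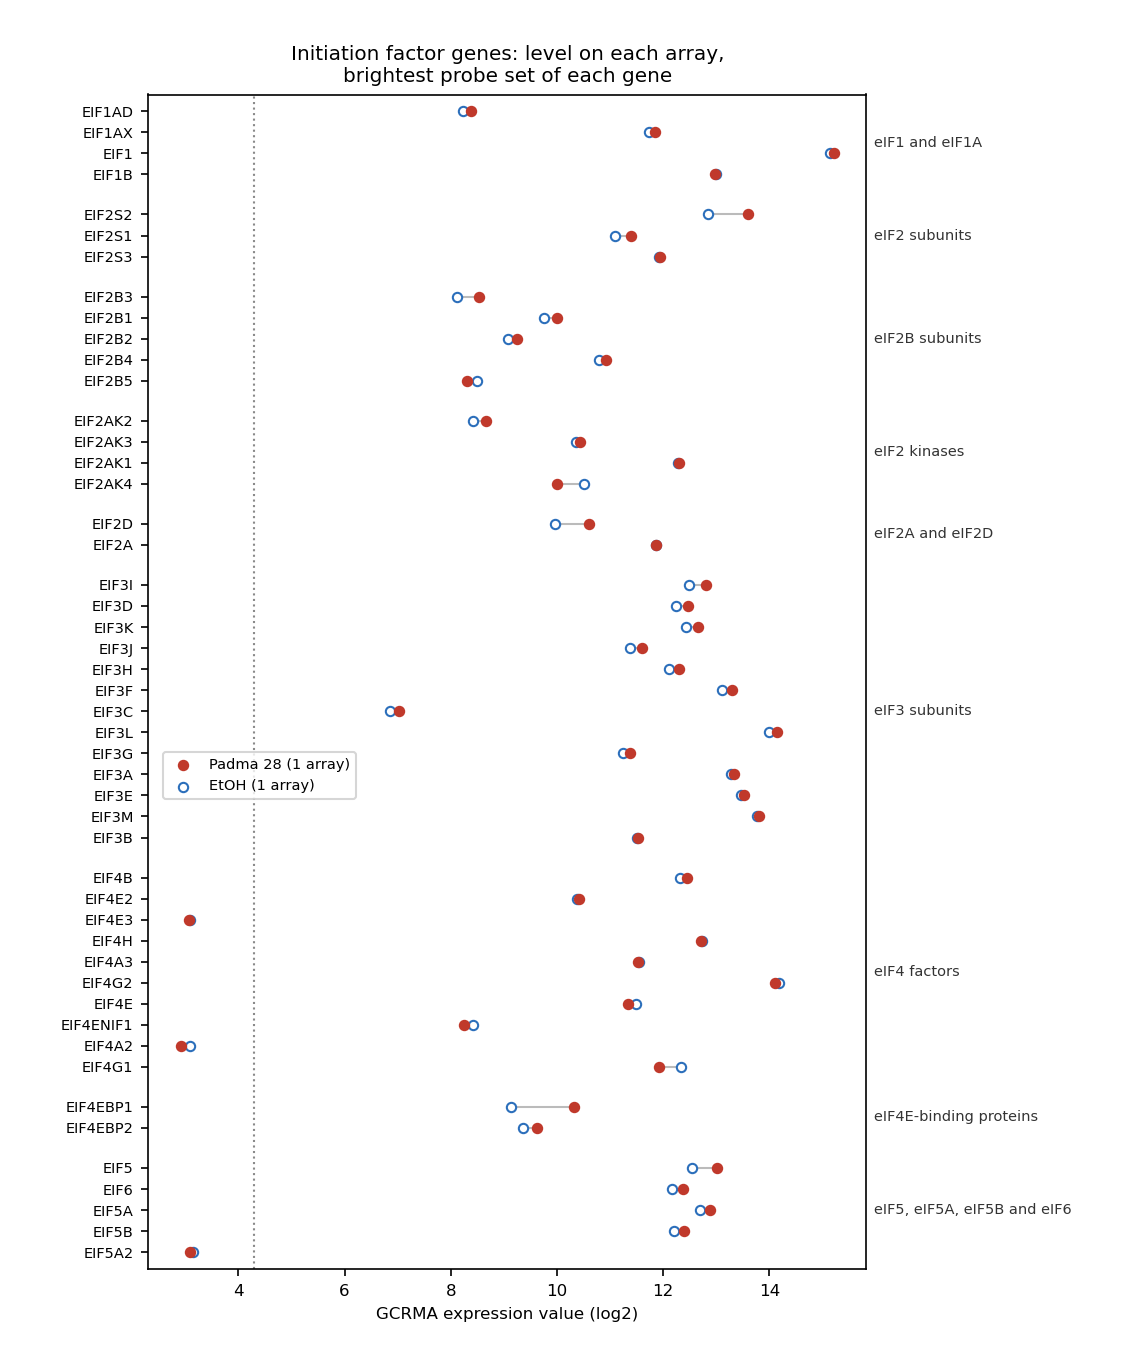
Log2 expression value (horizontal axis) of the brightest own probe set of 48 initiation factor genes by role, with Padma 28 (filled red) and with EtOH (open blue), 1 array each. The dotted line marks the background limit of 4.30; only EIF4E3, EIF4A2 and EIF5A2 lie below it, and the widest gap is that of EIF4EBP1, at 10.32 with Padma 28 and 9.13 with EtOH.

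The subunits of eIF2, which brings the initiator tRNA, were all above 0, or 2 of 3 after centring, and differed in size. EIF2S2, the beta subunit, read 13.60 with Padma 28 and 12.84 with EtOH, which is 1.70-fold higher, with a difference of 0.77. On its other probe set, at 6.07 with Padma 28 and 5.85 with EtOH, the difference was only 0.22. EIF2S1, the alpha subunit that the kinases phosphorylate, was at 11.40 with Padma 28 and 11.09 with EtOH, a difference of 0.31, and at 0.07 and 0.21 on its other probe sets. EIF2S3, the gamma subunit that binds GTP, was at 11.94 with Padma 28 and 11.92 with EtOH. Its 3 probe sets gave 0.03, 0.06 and 0.20, and the brightest one turned to -0.03 after centring on the median. The median of the 3 subunits was 0.31.

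Of the 5 subunits of eIF2B, the exchange factor of eIF2, the regulatory and catalytic ones did not split by function. EIF2B3, the gamma subunit, was the highest, at 8.53 with Padma 28 and 8.12 with EtOH, a difference of 0.41. EIF2B1 (alpha) read 10.00 with Padma 28 and 9.76 with EtOH, EIF2B2 (beta) 9.25 with Padma 28 and 9.08 with EtOH, and EIF2B4 (delta) 10.93 with Padma 28 and 10.79 with EtOH. These 3 regulatory subunits gave differences of 0.24, 0.17 and 0.14. EIF2B5, the catalytic epsilon subunit, was the only one on the lower side, at 8.31 with Padma 28 and 8.49 with EtOH, a difference of -0.18. The median of the 5 was 0.17, and 4 of 5 stayed above 0 after centring.

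The eIF2 kinases differed among themselves in sign. EIF2AK4, which encodes GCN2, the sensor of uncharged tRNA, was the lowest of all members, at 10.00 with Padma 28 and 10.51 with EtOH. This is 1.43-fold lower, a difference of -0.52 and rank 378 from the bottom of the 10271 genes. Its second probe set, at 7.82 with Padma 28 and 7.84 with EtOH, gave -0.03, so the lower level rests on 1 of its 2 probe sets. EIF2AK2, which encodes the kinase PKR that double-stranded RNA activates, was at 8.67 with Padma 28 on both of its probe sets above the limit, and at 8.41 and 8.40 with EtOH. Both probe sets were higher by 0.26 and 0.27.

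EIF2AK3, which encodes PERK, the kinase of the endoplasmic reticulum, was at 10.43 with Padma 28 and 10.37 with EtOH, a difference of 0.06. EIF2AK1, which encodes HRI, the kinase that heme inhibits, was at 12.29 with Padma 28 and 12.27 with EtOH. Its difference was 0.02, and -0.33 on a dimmer probe set, at 6.31 with Padma 28 and 6.64 with EtOH. The median of the 4 kinases was 0.04, with 3 above 0 and 2 above 0 after centring, and none passed 1.5-fold.

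EIF2D, which can place tRNA on the ribosome without eIF2 and acts in recycling, was 1.55-fold higher, at 10.60 with Padma 28 and 9.97 with EtOH on its only probe set, a difference of 0.64. It lay under 1.5-fold, at 0.58, once the differences were centred, whether by the median or by loess. EIF2A, a separate tRNA-binding factor, was at 11.86 with Padma 28 and 11.87 with EtOH, a difference of -0.01.

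The subunits of eIF3, the large scaffold of the small ribosomal subunit, had differences close together. All 13 subunits above the limit were above 0 on their brightest probe set, between 0.02 for EIF3B and 0.32 for EIF3I, with a median of 0.17, but 10 of 13 were above 0 after centring on the median and 12 after loess centring. EIF3I read 12.81 with Padma 28 and 12.49 with EtOH, EIF3D, which can bind the cap of some mRNAs, 12.48 with Padma 28 and 12.24 with EtOH, and EIF3K 12.66 with Padma 28 and 12.43 with EtOH. The differences of EIF3D and EIF3K were 0.24 and 0.23. EIF3J, a loosely attached subunit, was at 0.22 and, on a dimmer probe set, at 0.42.

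EIF3H was at 0.19, EIF3F at 0.18, EIF3C at 0.17, EIF3L at 0.16 and EIF3G at 0.13. The largest subunit EIF3A was at 0.07, EIF3E at 0.06 and EIF3M at 0.03. For EIF3C the own probe set was dim, at 7.02 with Padma 28 and 6.85 with EtOH, while 3 bright ones shared with its near-identical copy EIF3CL gave 0.24 to 0.28. None of the 13 passed 1.5-fold, and the highest and the lowest of them were 0.30 apart.

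EIF3B, an RNA-binding core subunit, had the probe sets that disagreed most. The 3 brightest gave 0.02, 0.08 and -0.02. A dimmer one was at 8.62 with Padma 28 and 8.91 with EtOH, and the dimmest above the limit at 6.13 with Padma 28 and 6.91 with EtOH, differences of -0.30 and -0.78. This last was the only probe set past 1.5-fold among the 49 of the family, EIF1AY left out, that were above the limit and not the brightest of their gene. EIF3E likewise had a dimmer probe set on the lower side, at -0.35.

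EIF1 and EIF1A keep the scanning ribosome open. EIF1 had 7 probe sets above the limit, of which 6 were above 0. The brightest was at 15.21 with Padma 28 and 15.14 with EtOH, a difference of 0.07, while the next 3, at 13.28, 13.29 and 13.24 with Padma 28 and at 12.90, 12.85 and 12.86 with EtOH, gave 0.39, 0.45 and 0.38, and a dim one gave -0.37. These 3 are of the _x_at type, which by the array's naming can bind related transcripts. EIF1B, the paralogue of EIF1, was at 12.97 with Padma 28 and 13.00 with EtOH, and EIF1AX at 11.84 with Padma 28 and 11.72 with EtOH. Their differences were -0.02 and 0.11, and that of EIF1AD, which carries an eIF1A-like domain, was 0.14.

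The factors of the late steps were all on the higher side. EIF5, which makes eIF2 hydrolyse its GTP, was at 13.02 with Padma 28 and 12.55 with EtOH, 1.39-fold higher, and its 4 probe sets above the limit gave 0.47, 0.41, 0.35 and 0.33. All 4 were above 0. EIF6, which keeps the large ribosomal subunit apart, was at 0.22, EIF5A, which helps the ribosome over difficult peptide bonds and carries the amino acid hypusine, at 0.19 and EIF5B, the GTPase of subunit joining, at 0.18. All 4 stayed above 0 after centring, and their median was 0.20.

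**Figure D3:**
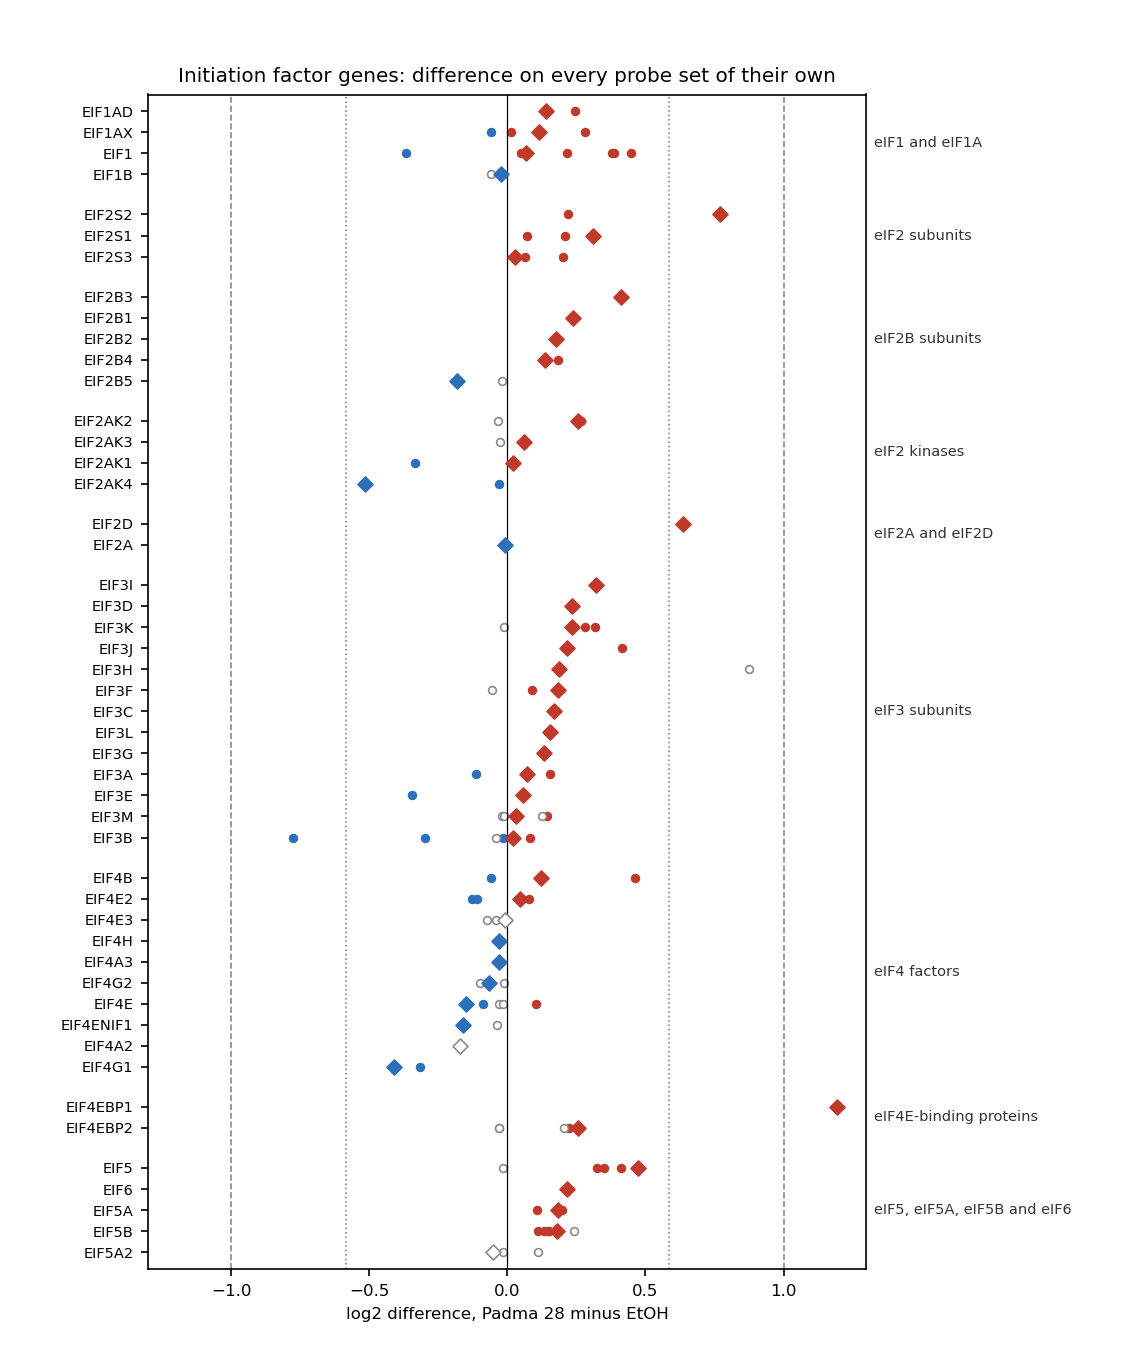
Log2 difference, Padma 28 minus EtOH (horizontal axis), of every own probe set of 48 initiation factor genes by role, on a single array for each treatment. Diamonds show the brightest one for each gene and circles the others, red is above 0 and blue below, open grey symbols are below the limit on both arrays, and dotted and dashed lines mark 1.5-fold and 2-fold; the 4 filled symbols of EIF5 lie together at 0.33 to 0.47, whereas those of EIF3B reach from -0.78 to 0.08.

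Probe sets of 1 gene often agreed in sign. Of 26 members with at least 2 probe sets above the limit, 17 had all of them on the same side of 0 and 9 did not, namely EIF1, EIF1AX, EIF2AK1, EIF3A, EIF3B, EIF3E, EIF4B, EIF4E and EIF4E2. Apart from those of EIF1AY, there were 49 further probe sets, of which 37 had the sign of the brightest one.

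Genes listed as readouts of eIF2 phosphorylation were mostly higher with Padma 28, with a median of 0.88, beside 0.14 for the initiation factors. The phosphorylation itself was not measured, and the cause of these differences was not tested. ATF4, the transcription factor that phosphorylated eIF2 favours in translation, was at 13.31 with Padma 28 and 12.49 with EtOH, a difference of 0.82, and its proapoptotic target DDIT3 at 9.54 with Padma 28 and 8.04 with EtOH, a difference of 1.51. Of 18 genes of this list above the limit, 15 were more than 1.5-fold higher, 8 of these more than 2-fold, and 17 were above 0, also after centring. Of all genes above the limit, 6.33% were more than 1.5-fold higher, 1.47% more than 2-fold higher and 58.3% above 0. The exception on this list was GADD45A, a growth arrest gene, at -0.49. The stress-induced PPP1R15A, counted below with the regulators and not on this list, was lower as well, at -0.37. CHAC1 and DDR2, also on the list, were below the limit on both arrays. SLC7A11 reached 4.24 on a dimmer probe set. The 4 genes with the largest differences on their brightest probe sets were ASNS, SLC7A11, NUPR1 and JDP2, at 3.35, 3.21, 2.65 and 1.91. Several of these genes had been picked out by the study on the same arrays, so the list is not independent evidence of a direction. For ASNS alone among them, the paper also reports a higher level by qPCR in independent experiments.

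The regulators that act on eIF2 itself showed no common shift. Of 14 phosphatase subunits and kinase regulators above the limit, 7 were above 0 and the median was 0.00, beside 58.3% and 0.06 for all genes above the limit. PPP1R15A, the stress-induced subunit that directs the phosphatase to eIF2, was at 9.10 with Padma 28 and 9.47 with EtOH, differences of -0.37 and -0.31 on its 2 probe sets. The constitutive PPP1R15B was at -0.10. OMA1, the mitochondrial protease upstream of HRI, was at 0.64, the kinase inhibitor DNAJC3 at 0.44 and IMPACT, which restrains GCN2, at 0.39. GCN1, the partner of GCN2, was at 0.02, and at -0.31 on a dimmer probe set.

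Signalling to eIF4E likewise showed no common shift, with 8 of 17 genes above 0 and a median of -0.02. The values for all genes above the limit were 58.3% and 0.06. SESN2, an inhibitor of TOR complex 1 in amino acid shortage, was the only one past 1.5-fold, at 9.06 with Padma 28 and 8.17 with EtOH, a difference of 0.90. This is 5.88% of the list, near the 6.33% of all genes above the limit that were more than 1.5-fold higher. DDIT4 and AKT1S1, which also restrain TOR, were at 0.38 and 0.31, but TSC1 and TSC2, which restrain it too, were at -0.26 and -0.28. The S6 kinase RPS6KB2 was at -0.39 and MTOR itself at -0.03. Of the kinases that phosphorylate eIF4E, MKNK1 was at 0.28 and MKNK2 at -0.16.

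Among 17 partners in scanning, poly(A) binding and recycling, 14 were above 0, or 12 after centring, with a median of 0.10, beside 58.3% and 0.06 for all genes above the limit. MIF4GD, which has the middle domain of eIF4G and serves histone mRNAs, was 2.24-fold higher, at 9.73 with Padma 28 and 8.56 with EtOH. The scanning helicase DHX29 was at 0.53, the eIF5 mimic BZW2 at 0.49 and MCTS1, which works in recycling, at 0.32. The hypusine enzymes that modify eIF5A, DHPS and DOHH, were at 0.15 and -0.22.

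Of 9 elongation and release factors 8 were above 0, or 6 after centring, beside 58.3% and 50% of all genes above the limit. None passed 1.5-fold. Their median of 0.07 was near the 0.06 of all genes above the limit. EEF2K, the inhibitory kinase of elongation factor 2, was at 0.26, the release factor ETF1 at 0.25, the rescue factor PELO at 0.17 and the release factor GSPT1 at 0.08. The probe sets of GSPT1 above the limit reached from -0.35 to 0.44. EEF2 itself was at 0.06.

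**Figure D4:**
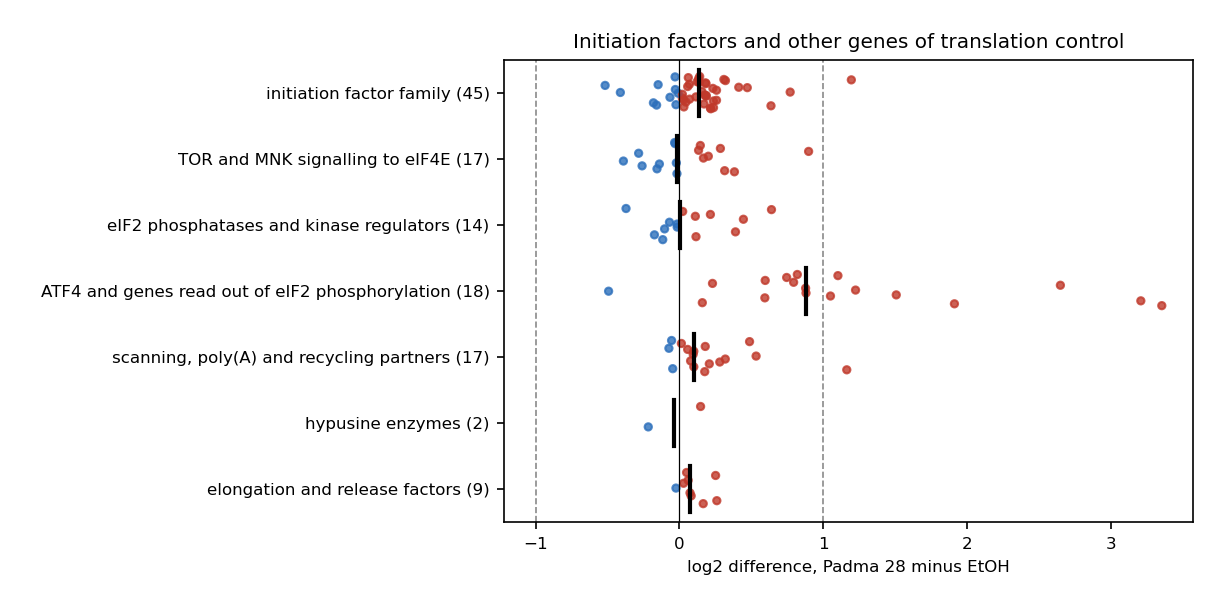
Log2 difference, Padma 28 minus EtOH (horizontal axis), of the genes above the background limit in the initiation factor family and in 6 lists of translation control, on a single array for each treatment; brackets give how many genes a list has. Each point is a gene, red above 0 and blue below, black bars are list medians and dashed lines mark 2-fold. The genes listed as readouts of eIF2 phosphorylation lie mostly to the right, around a median of 0.88, and the initiation factors around 0.14.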

How the data were processed

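The authors ran GCRMA on the scanned intensities of both arrays (a background correction that uses probe sequence, then quantile normalization and median polish) and deposited the log2 values it gave for 54675 probe sets. R 2.15.1 with GCRMA 2.28.0 is named in the submitters' processing notes, and earlier versions in the paper. The paper's unspecific filter has no stated criterion and was not applied. The labels and the paper differ in the flask and in the culture time before treatment, which the labels give as 6 h.

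The EtOH value was subtracted from the Padma 28 value of every probe set, following the paper's methods. Probe sets were named from the platform annotation, with 41097 for 1 gene, 1801 for several and 11777 for none, and all 19735 of 19777 Entrez identifiers found in RefSeq kept their symbol. The most frequent value, in bins of 0.1, was 2.35 on the Padma 28 array and 2.25 on the EtOH array. The number of arrays limits the precision, and no p-value, SD or interval was computed. Members and lists were chosen with earlier results of these data known. Values are given for every eIF2 kinase, eIF4E-binding protein and subunit of eIF2 and eIF2B, for members past 1.5-fold on any probe set above the limit, for the highest and lowest of each role, and for up to 4 genes of each list by size of difference. Any further gene was picked out with its values known. Promoters came from RefSeq (GRCh38.p14), with windows for 43 members, of which 42 were searched for motifs. The steps were tested on simulated data. The scripts used matplotlib 3.10.9, statsmodels 0.14.6, pandas 2.3.3 and numpy 2.4.6 under Python 3.11.15.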

Additional observations from a re-analysis of the deposited data

How the results depend on the processing

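The 11 alternatives were another choice of probe set (largest difference, or the median over a gene), a limit of 3 log2 units or none, an offset of 16 or 64 on the linear scale, centring by the median or by loess (span 0.3), repeated quantile normalization, leaving out _x_at and _s_at probe sets, and counting shared probe sets for each gene. The 2-fold counts, 1 higher and 0 lower, were the same under all 11, and the median of the family ranged from 0.08 to 0.19. The 1 higher member, EIF4EBP1, has a single own probe set, so another choice of probe set or of the limit could not change its value. With the probe set of largest difference, which left 42 members above the limit, 1 member, EIF3B, was more than 1.5-fold lower, the median of the eIF2 kinases was -0.14 and that of EIF1, EIF1AX and EIF1AD, EIF1B having dropped below the limit, was 0.28. In that setting 10 of 12 eIF3 subunits were above 0, and with the median over probe sets 11 of 13. Without _x_at and _s_at probe sets 36 members were left, with 1 more than 1.5-fold higher, 23 above 0 (63.9%, beside 56.2% of all genes in that setting) and a median of -0.0090 for eIF2A alone, since EIF2D has no other probe set. There EIF2AK4 was at -0.03 and EIF2S2 at 0.22. With shared probe sets, which add EIF4EBP3, the median of the eIF4E-binding proteins was 0.30. The other 169 of 176 values of counts and medians stayed within 1.5 times or within 0.15 log2 units, the median gap between the 2 brightest probe sets of a gene. Centring of the 6 lists of other genes was added after the data had been seen. No paired analysis was possible because there is 1 array per treatment, and leaving out an array was not possible either.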
